A study of Mus musculus and Rattus norvegicus with 14 samples.

Results

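Integrins are the receptors by which cells hold on to the matrix around them, and each is a pair of an alpha and a beta chain. Laminins, built from an alpha, a beta and a gamma chain, form the sheet of basement membrane that wraps every heart muscle cell, and nidogens link that sheet to type IV collagen. Fibronectin and vitronectin are adhesive glycoproteins of plasma and of the provisional matrix of wounds, and several integrins bind both through the tripeptide arginine-glycine-aspartate, written RGD. In the adult heart the pair α7β1 is known as the main laminin receptor of cardiomyocytes, whereas integrins of the αv group and the collagen receptor α11β1 are known from activated fibroblasts.

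The genes of this family were chosen by name alone. In the mouse table they were the protein-coding genes named as integrin alpha or beta chains or as laminin chains, together with Fn1 (fibronectin), Vtn (vitronectin), Nid1 and Nid2, which gave 41 of 54532 genes. In the rat table the same rule gave 38 of 33600 genes, because Itgam and Lama3 had no row under these symbols and Itgb5 was listed as a processed transcript and not as protein-coding.

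Poly(A) RNA was sequenced from whole mouse hearts in 4 groups of 3 libraries, named LQ-40, SQ-3, Model and Sham by their labels. The names LQ-40 and SQ-3 stand for compounds known here by code only, and the study's design text gives as its aim to assess both in myocardial fibrosis with an eye to their similar structures. No strain, age, dose, time point or procedure behind Model is given in these labels, nor is it said whether hearts of the compound groups went through that procedure or whether libraries of a group are separate animals, so p-values may measure only technical spread. The rat material was 1 library of a 3D co-culture (called 3D-OGD-MF in the design text) and 1 library of 2D cells, each of primary cardiomyocytes, cardiac fibroblasts and bone marrow macrophages, the 2D cells being combined in equal parts.

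The mouse libraries held 13085370 to 16698987 reads in genes, and the rat libraries held 11910160 (3D) and 13262387 (2D). Levels are given as scaled FPKM, which is the deposited FPKM (reads corrected for gene length and library size) divided by a factor per library of 0.979 to 1.032. Changes are given as differences of log2(scaled FPKM + 1) with their standard error, from limma with Benjamini-Hochberg adjustment over 13000 genes, and a gene is called at an adjusted p under 0.05. This scale shrinks the change of low genes. The first principal component over these genes, which carried 53.4% of the variance, ran from -52.5 to -43.7 in Sham hearts and from 26.3 to 36.2 in Model hearts. LQ-40 library 1 stood apart from its group, at -20.6 against 16.0 and 34.3 for LQ-40 libraries 2 and 3, so results for LQ-40 are given with and without it. That library also enters the standard errors of the other comparisons, since 1 fit covers all mouse libraries. The SQ-3 libraries lay at 0.231 to 17.7. Cardiomyocyte markers were abundant in every heart library.

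The Fn1 and Vtn sites below are shown because they are what the integrins described next are known to hold, and the Nid1 stretch is shown beside them as a match of letters in a basement membrane member. They are coding sequence of the mouse (build GRCm38), taken from the GENCODE transcript with the longest complete reading frame, with the site's codons in capitals. The first lies in exon 30 of 46 of Fn1 (chr1:71606722-71606778, minus strand) and covers codons 1614 to 1616 of 2477. The second, the ILDV site bound by integrins with the α4 chain, lies in exon 40 of Fn1 (chr1:71597659-71597718, minus strand). The Vtn site spans exons 2 and 3 (chr11:78499604-78499738, plus strand), and the Nid1 site spans exons 9 and 10 (chr13:13483745-13486646, plus strand).
Fn1 RGD: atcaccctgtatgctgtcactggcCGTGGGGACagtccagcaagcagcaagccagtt
Fn1 ILDV: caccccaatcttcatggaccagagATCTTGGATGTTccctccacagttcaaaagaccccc
Vtn RGD: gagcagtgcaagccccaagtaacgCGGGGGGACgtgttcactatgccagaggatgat
Nid1 RGD: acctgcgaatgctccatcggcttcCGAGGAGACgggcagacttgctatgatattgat
The arginine codon was CGT in Fn1, CGG in Vtn and CGA in Nid1, so the tripeptide is written with different bases in the 3 genes. In the reading frames, Fn1 held 2 RGD tripeptides, Lama5 held 2, and Lama1, Lama3, Lama4, Nid1, Nid2 and Vtn held 1 each. Beyond the Fn1 and Vtn sites printed above, the matches were found by letters alone, and whether an integrin binds them was not tested.

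Fibronectin, both nidogens, the muscle laminin chain Lama2, the laminin gamma chains Lamc1 and Lamc3 and 13 integrin chains were called higher in Model than in Sham hearts. The laminin receptor chain Itga7 was among those called lower. Of the 34 members that passed the expression filter (at least 1 FPKM in at least 3 libraries), 20 were called higher and 4 lower in Model hearts. Over all 13000 genes tested, 20.9% were called higher and 18.0% lower. The median change of the 34 members was 0.61 on the log2 scale, beside 0.03 over all genes. A caution belongs to this count: 7 tested members had no Sham library at 1 FPKM and entered through the other groups, and 6 of those 7 are among the 20. The count also moved with single libraries, to 14 called without Sham library 1 and 13 without Model library 1. The share of all genes called in these fits is not given here, so the moves are not shown to be particular to the members. In a bulk sample, fewer cells of a type and less RNA per cell cannot be told apart.

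**Figure D1:**
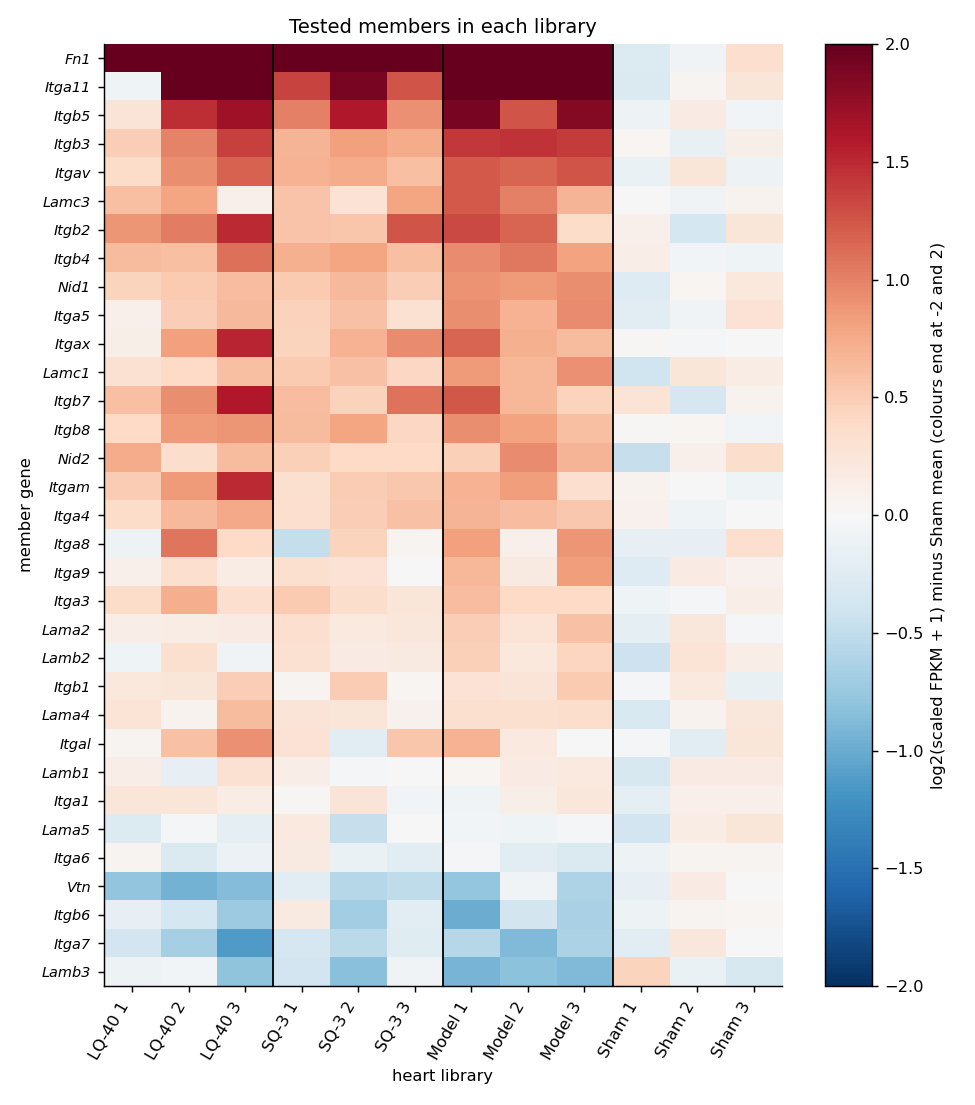
Each row is 1 of the tested members and each column a heart library, and the colour is the log2(scaled FPKM + 1) of that library minus the mean of the Sham libraries. Rows are sorted by the change of Model against Sham, from Fn1 (3.80) at the top to Lamb3 (-0.88) at the bottom; LQ-40 library 1 is paler than LQ-40 libraries 2 and 3 for Itga11 and Itgb5.

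Fibronectin showed the largest change of the family. Fn1 (chromosome 1, ENSMUSG00000026193) was at 56.0, 157 and 232 scaled FPKM in LQ-40 hearts, 89.6, 79.3 and 80.2 in SQ-3 hearts, 167, 169 and 129 in Model hearts and 8.20, 9.62 and 13.0 in Sham hearts. Every Model library lay above every Sham library by a wide margin, as did every library of both compound groups. The change of Model against Sham was 3.80 ± 0.40 (limma adjusted p = 0.000214), a 15.1-fold ratio of the group means. Vtn, vitronectin, which reaches tissues from plasma and is made mainly by the liver, went the other way. It was at 11.0, 9.77 and 10.4 scaled FPKM in LQ-40 hearts, 16.6, 13.0 and 13.5 in SQ-3 hearts, 11.1, 18.8 and 12.5 in Model hearts and 17.6, 22.2 and 19.7 in Sham hearts. The Model and Sham libraries overlapped, since Model library 2 lay above Sham library 1. The change was -0.49 ± 0.17 (adjusted p = 0.0449), and the adjusted p was 0.173, 0.133, 0.0544, 0.135 and 0.0849 without Model library 1 or 3 or Sham library 1, 2 or 3. With these, the Vtn call was lost under 9 of 14 alternative settings, which are listed with the processing.

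**Figure D2:**
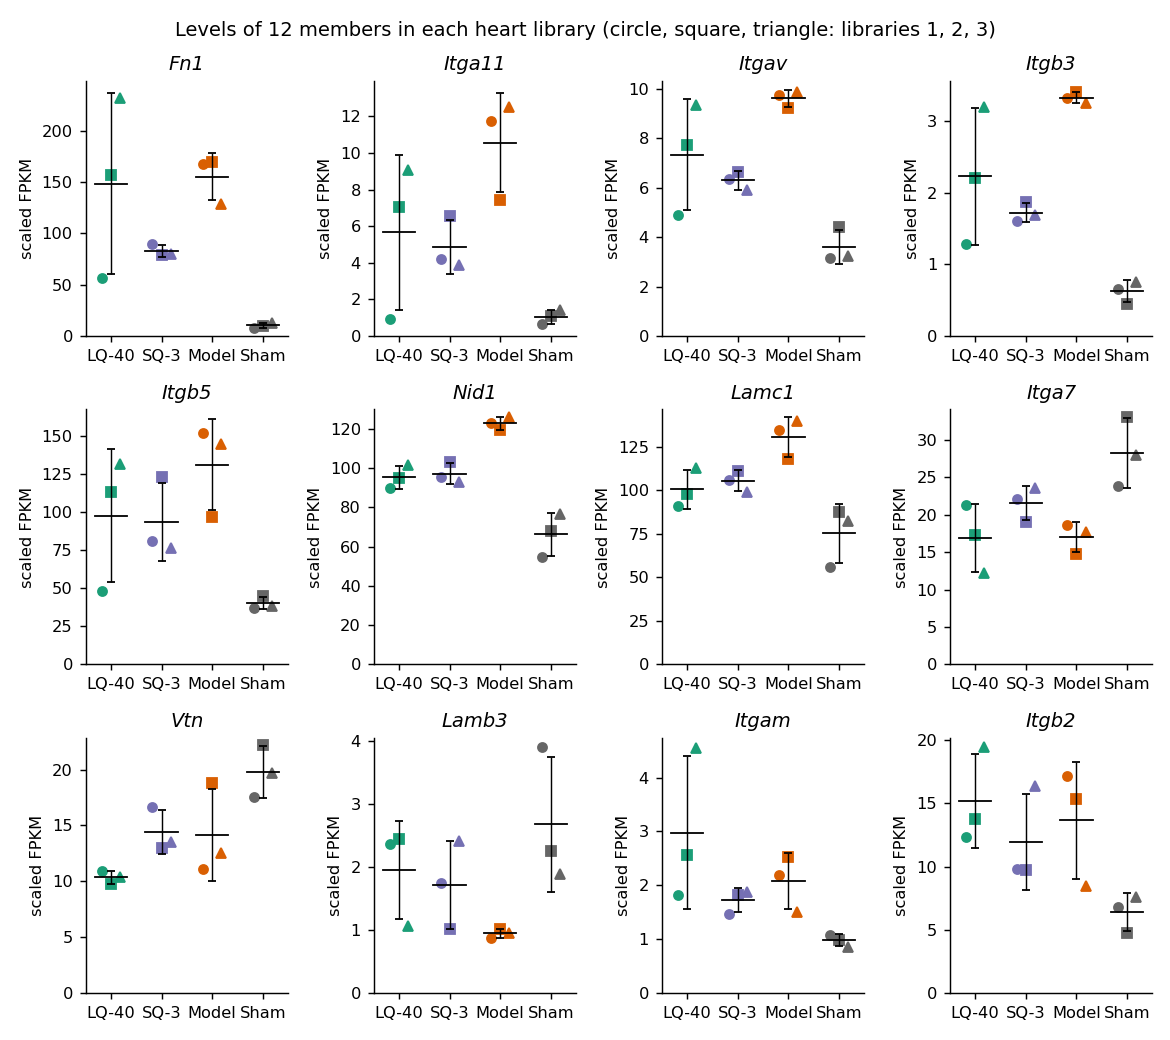
Scaled FPKM of 12 members in each heart library; the horizontal line is the mean of the 3 libraries and the bar its SD. Fn1 is above 50 in every LQ-40, SQ-3 and Model library and at most 13.0 in Sham, while the Itga7 libraries of Sham lie above those of Model.

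Among the receptors for fibronectin and vitronectin, the αv and α5 chains and their β3 and β5 partners were called higher in Model hearts. Itgav, the αv chain, was at 4.90, 7.73 and 9.34 scaled FPKM in LQ-40 hearts, 6.36, 6.65 and 5.90 in SQ-3 hearts, 9.73, 9.22 and 9.88 in Model hearts and 3.15, 4.39 and 3.25 in Sham hearts. All Model libraries lay above all Sham libraries, with the SQ-3 libraries in between. The change of Model against Sham was 1.22 ± 0.18 (adjusted p = 0.00105). Itga5, the alpha chain of the classical fibronectin receptor α5β1, was at 14.9, 19.9 and 22.2 scaled FPKM in LQ-40 hearts, 19.5, 21.4 and 17.3 in SQ-3 hearts, 27.3, 23.2 and 27.6 in Model hearts and 11.7, 13.2 and 17.1 in Sham hearts. Its Model libraries also lay above all Sham, LQ-40 and SQ-3 libraries. Itga5 changed by 0.86 ± 0.17 in Model against Sham (adjusted p = 0.00397). Itga8, the alpha chain of a further RGD receptor, overlapped between the groups and was not called (0.60 ± 0.33, adjusted p = 0.165).

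Itgb5, the beta chain of the vitronectin receptor αvβ5, was the second most abundant beta chain. It was at 48.3, 113 and 131 scaled FPKM in LQ-40 hearts, 81.2, 123 and 76.5 in SQ-3 hearts, 152, 96.9 and 145 in Model hearts and 37.3, 44.7 and 38.4 in Sham hearts. LQ-40 library 1 lay near the Sham libraries, whereas LQ-40 libraries 2 and 3 fell among the Model libraries. The change of Model against Sham was 1.66 ± 0.34 (adjusted p = 0.00472). Itgb3, which pairs with αv and, in platelets, with αIIb, was at 1.28, 2.21 and 3.19 scaled FPKM in LQ-40 hearts, 1.60, 1.87 and 1.70 in SQ-3 hearts, 3.32, 3.41 and 3.26 in Model hearts and 0.660, 0.453 and 0.757 in Sham hearts. Model and Sham did not overlap, and Sham libraries stayed under 1 scaled FPKM. Itgb3 changed by 1.42 ± 0.18 (adjusted p = 0.000577), and the ratio of group means was 5.34. Itgb8, whose pair αvβ8 is known for releasing active TGF-beta, was at 0.670, 1.30 and 1.35 scaled FPKM in LQ-40 hearts, 0.958, 1.19 and 0.691 in SQ-3 hearts, 1.41, 1.22 and 0.932 in Model hearts and 0.282, 0.295 and 0.227 in Sham hearts. It was low throughout, and no Sham library reached 1 scaled FPKM. Its change was 0.78 ± 0.17 (adjusted p = 0.00545). Itgb6, the beta chain of the epithelial receptor αvβ6, was lower in Model hearts, at 1.68, 1.36 and 0.830 scaled FPKM in LQ-40 hearts, 2.41, 0.859 and 1.62 in SQ-3 hearts, 0.523, 1.35 and 0.923 in Model hearts and 1.82, 2.15 and 2.09 in Sham hearts. The Model libraries lay below all Sham libraries. The change was -0.67 ± 0.23 (adjusted p = 0.0407), with adjusted p of 0.149, 0.0846, 0.0725, 0.0991 and 0.0881 without Model library 1 or 3 or Sham library 1, 2 or 3. With these, the Itgb6 call was lost under 7 of 13 alternative settings.

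Itgb1, the partner of most alpha chains, was the most abundant integrin chain in all 12 libraries, at 194, 199 and 236 scaled FPKM in LQ-40 hearts, 175, 239.6 and 172 in SQ-3 hearts, 206, 199.8 and 242 in Model hearts and 164, 191 and 151 in Sham hearts. Model and Sham libraries did not overlap, but the gap was small beside the spread of the other groups. The change of 0.36 ± 0.17 was not called (adjusted p = 0.119), although it was with quantile normalization (adjusted p = 0.0165, within a range of 0.0165 to 0.305 over the alternatives).

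The collagen receptors were led by Itga11. This alpha chain, known from fibroblasts, was at 0.903, 7.03 and 9.06 scaled FPKM in LQ-40 hearts, 4.19, 6.56 and 3.87 in SQ-3 hearts, 11.7, 7.46 and 12.5 in Model hearts and 0.653, 1.10 and 1.41 in Sham hearts. The Model libraries were all far above the Sham libraries, and LQ-40 library 1 alone of the compound libraries fell inside the Sham range. The change of Model against Sham was 2.48 ± 0.50 (adjusted p = 0.00451), and the ratio of means was 10.0. Itga1, the alpha chain of another collagen receptor, was at 5.67 to 7.22 scaled FPKM in Model hearts and 5.12 to 6.56 in Sham hearts, and was not called (0.08 ± 0.12, adjusted p = 0.602). Itga2 and Itga10 did not pass the filter: Itga2 was at 0.717 to 1.17 scaled FPKM in Model and 0.187 to 0.374 in Sham hearts, and Itga10 at 0.689 to 0.796 in Model and 0.0859 to 0.242 in Sham hearts.

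The laminin receptors moved in different directions. Itga7, of the receptor α7β1, was at 21.4, 17.2 and 12.3 scaled FPKM in LQ-40 hearts, 22.1, 19.0 and 23.6 in SQ-3 hearts, 18.6, 14.7 and 17.7 in Model hearts and 23.8, 33.0 and 27.9 in Sham hearts. All Model libraries lay below all Sham libraries, and so did those of LQ-40 and SQ-3. The change of Model against Sham was -0.69 ± 0.19 (adjusted p = 0.0155), with adjusted p of 0.0586 without Sham library 2 and 0.0554 without Model library 2. Itga3, found in many cell types, was at 4.02, 5.44 and 3.91 scaled FPKM in LQ-40 hearts, 4.61, 3.96 and 3.57 in SQ-3 hearts, 4.98, 4.14 and 4.13 in Model hearts and 2.65, 2.78 and 3.25 in Sham hearts. Model exceeded Sham in every library. It changed by 0.48 ± 0.13 (adjusted p = 0.0143; 0.0520 without Sham library 1 and 0.0606 without Model library 1). Itga6, a laminin receptor chain of endothelium and epithelium, overlapped between Model (11.01 to 13.39 scaled FPKM) and Sham (12.6 to 14.2) and was not called (-0.18 ± 0.13, adjusted p = 0.290). Itgb4, which pairs with α6 in hemidesmosomes, was at 1.07, 1.02 and 1.85 scaled FPKM in LQ-40 hearts, 1.19, 1.31 and 1.02 in SQ-3 hearts, 1.57, 1.76 and 1.32 in Model hearts and 0.455, 0.286 and 0.257 in Sham hearts. No Sham library reached 0.5 scaled FPKM, and every other library exceeded 1. Its change was 0.94 ± 0.15 (adjusted p = 0.00168). Summed over 4 genes, epithelial markers were at 6.56 to 25.5 scaled FPKM in Model and 1.05 to 2.58 in Sham hearts. Of 3 tested, 2 were called higher, beside 20.9% of all genes. Mesothelial markers, 5 genes, were at 15.5 to 78.4 in Model and 2.14 to 15.6 in Sham hearts, with 3 of 5 called higher. No gene of either list was at 0 in all 12 libraries, and the part of such cells in the Itgb4, Itgb6 and Lamb3 values was not tested.

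**Figure D3:**
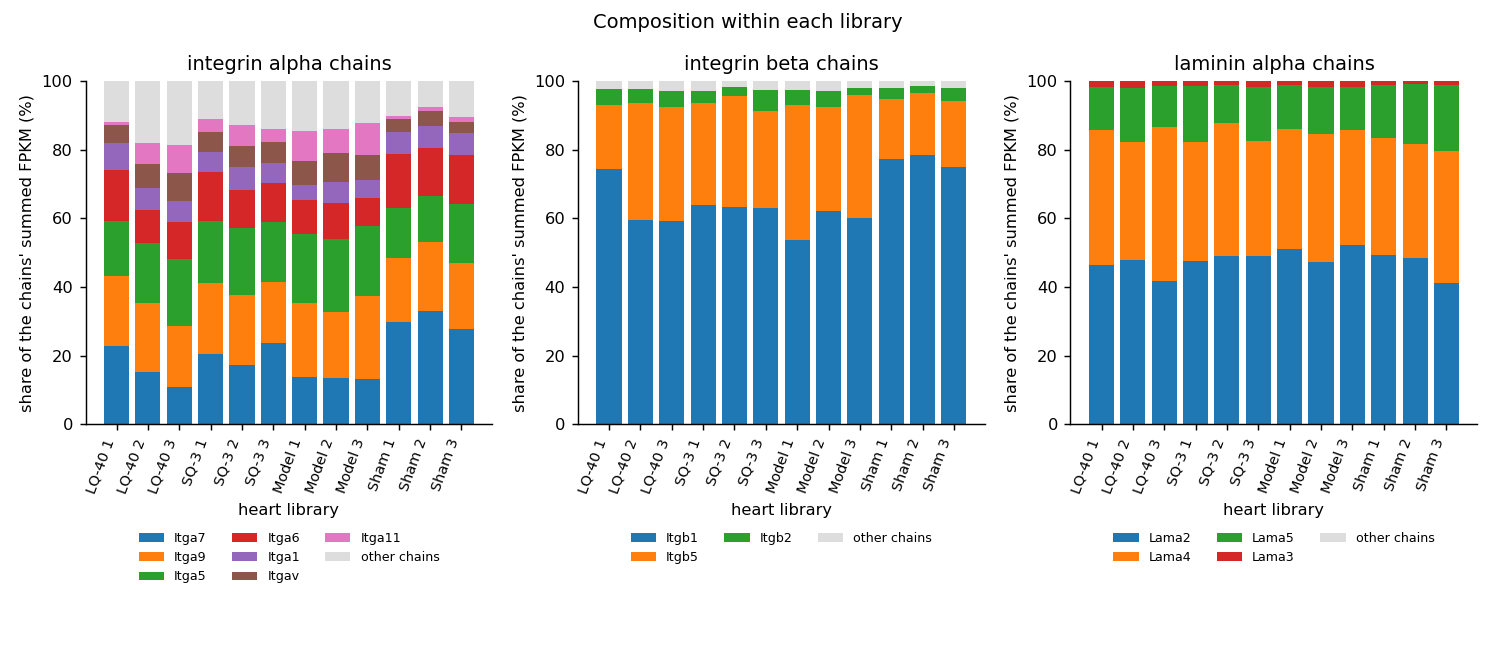
Each bar is a heart library and each colour the share of 1 chain in the summed FPKM of all alpha integrins, all beta integrins or all laminin alpha chains. The Itga7 band is 13.1 to 13.8% in Model and 27.9 to 32.9% in Sham hearts. In the laminin bars, the Lama5 band is 12.6 to 13.6% in Model and 15.5 to 19.2% in Sham hearts.

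Within a library, where scaling cancels, the makeup of the receptor pool differed between Model and Sham. Itga7 made up 13.1 to 13.8% of the summed FPKM of 18 alpha chains in Model hearts and 27.9 to 32.9% in Sham hearts. Itga11 made up 6.88 to 9.25% in Model and 0.814 to 1.40% in Sham hearts. In LQ-40 hearts Itga7 ranged over 10.8 to 22.7% and Itga11 over 0.959 to 7.98%, library 1 being nearest to Sham for both. SQ-3 hearts lay between, with Itga7 at 17.3 to 23.6% and Itga11 at 3.87 to 5.98%. Among 8 beta chains, Itgb1 fell to 53.5 to 62.2% in Model hearts, against 75.1 to 78.3% in Sham hearts, and Itgb5 reached 30.1 to 39.5% in Model, against 17.6 to 19.1% in Sham hearts. These shares are per length, carry no test here, and show unequal levels, not that any chain stayed constant.

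Receptors of the α4 and α9 group bind the ILDV site and tenascins. Itga4 was at 0.817, 1.21 and 1.37 scaled FPKM in LQ-40 hearts, 0.785, 0.972 and 1.12 in SQ-3 hearts, 1.25, 1.17 and 1.04 in Model hearts and 0.485, 0.319 and 0.421 in Sham hearts. Sham libraries stayed under 0.5 scaled FPKM. It changed by 0.61 ± 0.13 (adjusted p = 0.00630). Itga9, one of the most abundant alpha chains, was at 19.4, 23.0 and 20.2 scaled FPKM in LQ-40 hearts, 22.6, 22.2 and 17.9 in SQ-3 hearts, 29.1, 20.6 and 33.0 in Model hearts and 15.0, 20.4 and 19.2 in Sham hearts. The lowest Model library was close above the highest Sham library. Its change was 0.56 ± 0.18 (adjusted p = 0.0286), and the adjusted p was 0.108, 0.0920 and 0.106 without Sham library 1, Model library 1 or Model library 3. With these, the Itga9 call was lost under 6 of 14 alternative settings.

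Several leukocyte integrins share the β2 chain, and Itgb2 was at 12.4, 13.8 and 19.4 scaled FPKM in LQ-40 hearts, 9.78, 9.71 and 16.4 in SQ-3 hearts, 17.2, 15.4 and 8.44 in Model hearts and 6.84, 4.72 and 7.63 in Sham hearts. Model and Sham did not overlap, but Model library 3 lay close to the highest Sham library. The change was 0.95 ± 0.28 (adjusted p = 0.0223; 0.0820, 0.0883 and 0.0695 without Sham library 2, Model library 1 or Model library 2). With these, the Itgb2 call was lost under 4 of 14 alternative settings. Itgam, the alpha chain of the myeloid receptor Mac-1, was at 1.81, 2.57 and 4.55 scaled FPKM in LQ-40 hearts, 1.47, 1.82 and 1.88 in SQ-3 hearts, 2.20, 2.53 and 1.504 in Model hearts and 1.09, 0.990 and 0.858 in Sham hearts. LQ-40 library 3 was the highest of all. It changed by 0.62 ± 0.22 in Model against Sham (adjusted p = 0.0411), and by 5 of the 6 ways of leaving out a library the adjusted p lay between 0.0755 and 0.126, the exception being Model library 3. With these, the Itgam call was lost under 9 of 13 alternative settings. Reads of Itgam are uncertain because 68.7% of its exonic bases are shared with Gm49368 on the same strand. Itgax, an alpha chain of dendritic cells and macrophages, was at 0.305, 1.14 and 2.48 scaled FPKM in LQ-40 hearts, 0.639, 0.951 and 1.33 in SQ-3 hearts, 1.71, 0.975 and 0.866 in Model hearts and 0.227, 0.186 and 0.212 in Sham hearts. LQ-40 library 3 was again the highest. The change of 0.83 ± 0.30 (adjusted p = 0.0477) was not called when any of the 6 libraries was left out (0.0650 to 0.161). With these, the Itgax call was lost under 9 of 13 alternative settings. Itgb7, of the lymphocyte receptors α4β7 and αEβ7, was at 1.42, 2.05 and 3.88 scaled FPKM in LQ-40 hearts, 1.45, 1.20 and 2.39 in SQ-3 hearts, 2.77, 1.55 and 1.18 in Model hearts and 0.928, 0.268 and 0.679 in Sham hearts. Model and Sham did not overlap. Itgb7 missed the threshold in Model against Sham (0.78 ± 0.29, adjusted p = 0.0524). It was called without Model library 3 (0.0485), with only these 2 groups fitted (0.0399) and with 0.1 as pseudocount (0.0312), within a range of 0.0312 to 0.191 for the adjusted p over its alternatives. Itgal, of the lymphocyte receptor LFA-1, overlapped between Model (0.785 to 1.88 scaled FPKM) and Sham (0.531 to 1.11) and was not called (0.30 ± 0.27, adjusted p = 0.398).

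Macrophage markers rose beside these chains, in a comparison where 20.9% of all genes were called higher. Summed over 8 genes they were at 379 to 484 scaled FPKM in Model and 214 to 304 in Sham hearts, with 5 of 8 called higher, and at 357, 479 and 626 in LQ-40 libraries 1, 2 and 3. Summed over 6 genes, neutrophil markers were at 64.0, 5.98 and 80.4 in LQ-40 libraries 1, 2 and 3, and at 6.17 to 22.0 in all other libraries. No gene of either list was at 0 in all 12 libraries, and the part of these cells in the leukocyte integrin values was not tested.

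Promoters are shown for the alpha and beta chain with the largest change on the log2(scaled FPKM + 1) scale (by ratio of means, Itgb3 at 5.34, Itgb4 at 4.67 and Itgb8 at 4.42 exceeded Itgb5 at 3.27) and for Itgam, a chain of myeloid cells. Each is 300 bases of RefSeq on GRCm38.p6, all on the plus strand: Itga11 at chr9:62677605-62677904, Itgb5 at chr16:33829415-33829714 and Itgam at chr7:128062390-128062689. Capitals mark the GC box GGGCGG and the PU.1 core GAGGAA, or their reverse complements, found on either strand with no overlap.
Itga11: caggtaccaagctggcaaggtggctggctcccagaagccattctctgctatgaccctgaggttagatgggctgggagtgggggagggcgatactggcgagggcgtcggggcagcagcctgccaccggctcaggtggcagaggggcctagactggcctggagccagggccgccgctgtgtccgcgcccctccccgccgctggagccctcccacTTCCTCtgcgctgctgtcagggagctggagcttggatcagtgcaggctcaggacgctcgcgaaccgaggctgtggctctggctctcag
Itgb5: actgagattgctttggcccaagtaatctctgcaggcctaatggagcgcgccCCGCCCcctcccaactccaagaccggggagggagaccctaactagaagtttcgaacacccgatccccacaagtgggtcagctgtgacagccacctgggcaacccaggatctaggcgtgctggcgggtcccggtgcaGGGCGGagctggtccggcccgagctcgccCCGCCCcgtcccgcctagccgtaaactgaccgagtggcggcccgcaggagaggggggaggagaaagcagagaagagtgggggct
Itgam: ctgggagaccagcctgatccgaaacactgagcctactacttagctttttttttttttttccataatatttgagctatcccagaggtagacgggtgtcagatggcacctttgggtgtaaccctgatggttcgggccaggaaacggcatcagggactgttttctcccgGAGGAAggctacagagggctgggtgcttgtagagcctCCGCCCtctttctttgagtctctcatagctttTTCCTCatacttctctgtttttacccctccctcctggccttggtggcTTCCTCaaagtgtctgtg
Itga11 held 1 PU.1 core, Itgb5 held 3 GC boxes, and Itgam held 3 PU.1 cores and 1 GC box. Of all 32851 promoter windows in the table, 28.3% held the PU.1 core and 35.7% the GC box, so a match by itself is common. RefSeq windows were matched for 25 of the 41 members, 15 of them with a PU.1 core and 12 with a GC box. Of their 28 windows, 53.6% held the PU.1 core and 46.4% the GC box. The median content of G and C was 58.8% in the member windows and 52.7% in all windows, and these differences were not tested.

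Among the laminins, the gamma chains Lamc1 and Lamc3 and 1 of 3 tested alpha chains were called higher in Model hearts, and 1 of 3 beta chains was called lower. Lamc1, the gamma chain of most laminins, was at 91.0, 97.7 and 113 scaled FPKM in LQ-40 hearts, 106, 111 and 98.9 in SQ-3 hearts, 134, 118 and 139.6 in Model hearts and 56.0, 87.3 and 82.1 in Sham hearts. All Model libraries exceeded all libraries of the other groups. The change of Model against Sham was 0.81 ± 0.17 (adjusted p = 0.00531). Lamc3 was low, at 0.773, 1.01 and 0.255 scaled FPKM in LQ-40 hearts, 0.720, 0.422 and 1.02 in SQ-3 hearts, 1.73, 1.34 and 0.865 in Model hearts and 0.166, 0.110 and 0.219 in Sham hearts. Sham libraries lay below 0.25 scaled FPKM. It changed by 0.97 ± 0.21 (adjusted p = 0.00617).

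Lama2, the alpha chain of muscle laminin, was at 23.5, 23.8 and 23.8 scaled FPKM in LQ-40 hearts, 26.9, 24.5 and 25.1 in SQ-3 hearts, 30.1, 25.8 and 32.4 in Model hearts and 18.6, 25.1 and 20.5 in Sham hearts. The lowest Model library was just above the highest Sham library. It changed by 0.45 ± 0.12 (adjusted p = 0.0159; 0.0644, 0.0550 and 0.0624 without Sham library 1, Model library 1 or Model library 3). Lamb3, an epithelial laminin chain, was lower in Model hearts, at 2.36, 2.44 and 1.06 scaled FPKM in LQ-40 hearts, 1.74, 1.01 and 2.41 in SQ-3 hearts, 0.879, 1.02 and 0.948 in Model hearts and 3.90, 2.26 and 1.89 in Sham hearts. Sham library 1 stood above the rest, and Model lay below all Sham libraries. The change was -0.88 ± 0.26 (adjusted p = 0.0204), and the adjusted p was 0.0817 without Sham library 1, 0.0610 without Model library 1 and 0.0524 without Model library 3. With these, the Lamb3 call was lost under 4 of 13 alternative settings. The abundant beta chain Lamb2 was not called (0.37 ± 0.19, adjusted p = 0.135), and neither was Lamb1 (0.13 ± 0.16, 0.516). Of the chains known from vessels, Lama4 (0.33 ± 0.16, 0.124) and Lama5 (-0.05 ± 0.19, 0.839) were not called. Within the laminin alpha chains Lama2 made up 47.3 to 52.1% in Model and 41.2 to 49.2% in Sham hearts, and Lama5 12.6 to 13.6% in Model and 15.5 to 19.2% in Sham hearts. Lama1 and Lama3 did not pass the filter, Lama1 being at most 0.0257 scaled FPKM in any library.

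Both nidogens were called higher. Nid1 was at 89.7, 94.9 and 101 scaled FPKM in LQ-40 hearts, 95.4, 103 and 93.0 in SQ-3 hearts, 123, 119 and 126 in Model hearts and 54.7, 67.9 and 76.4 in Sham hearts. All Model libraries lay above all others and all Sham libraries below, while LQ-40 and SQ-3 overlapped. Its change was 0.89 ± 0.13 (adjusted p = 0.00117). Nid2 was at 16.7, 12.4 and 15.4 scaled FPKM in LQ-40 hearts, 13.7, 13.0 and 13.0 in SQ-3 hearts, 13.8, 19.3 and 15.9 in Model hearts and 6.71, 10.4 and 12.5 in Sham hearts. Model and Sham did not overlap, and Sham library 1 was the lowest. It changed by 0.70 ± 0.19 (adjusted p = 0.0168; 0.0541 without Sham library 1 and 0.0605 without Model library 2), and it shares 437 exonic bases with the antisense gene Rtraf. Of the 24 calls, 12 held under each alternative setting in which the gene was tested. Fn1, Itga5, Itga11, Itgav, Itgb5, Lamc1 and Nid1 were tested in all 14, Itga4, Itgb3, Itgb4 and Itgb8 in 13, and Lamc3 in 11, the others being settings whose expression filter they did not pass. Itga4, Itgb3, Itgb4, Itgb8 and Lamc3 had no Sham library at 1 FPKM, so wherever that filter was kept they entered through other groups. Lamc3 did not pass it without Model library 1 or 2, so its call could not be lost there.

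Other genes of the pathway were counted from lists of the same kind. Of 28 tested genes of the integrin adhesion complex, 14 were called higher and 3 lower in Model hearts (median 0.44 beside 0.03 over all genes). Over all genes, 20.9% were called higher and 18.0% lower. Flna, the actin crosslinker filamin A, was at 59.9 to 67.4 scaled FPKM in Model hearts and 23.2 to 32.8 in Sham hearts (1.19 ± 0.16, adjusted p = 0.000704). Zyx, zyxin of focal adhesions, was at 24.5 to 25.8 scaled FPKM in Model hearts and 10.2 to 14.4 in Sham hearts (1.06 ± 0.15, 0.000904). Tns3 (tensin 3) and Ptk2b (a focal adhesion kinase) followed, with changes of 1.42 ± 0.20 and 1.22 ± 0.19. The 3 called lower were Itgb1bp2, which encodes the muscle protein melusin (-1.16 ± 0.28, 0.00915), the β1-binding Itgb1bp1 (-0.38 ± 0.10) and the integrin activator Fermt2 (-0.31 ± 0.11).

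Among 19 other basement membrane genes, 11 were called higher and 2 lower (median 0.81), beside 20.9% and 18.0% of all genes. Col18a1 was at 14.4 to 16.0 scaled FPKM in Model hearts and 2.94 to 5.04 in Sham hearts (1.69 ± 0.20, adjusted p = 0.000358). Col4a6 (1.21 ± 0.15), the collagen-binding Sparc (2.12 ± 0.32) and Col4a5 (1.04 ± 0.16) came next by p. The laminin receptor Bcam (-0.78 ± 0.20) and the laminin-binding Agrn (-0.50 ± 0.16) were the 2 called lower. Of 16 other integrin ligands tested, 12 were called higher (median 1.41), beside 20.9% of all genes. They were led by the matricellular genes Postn, at 161 to 199 scaled FPKM in Model hearts and 8.92 to 17.0 in Sham hearts (3.74 ± 0.58, adjusted p = 0.00137), and Fbln5 (2.13 ± 0.33), Thbs1 (4.49 ± 0.77) and Tnc (3.21 ± 0.56).

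Markers of cell types also differed between Model and Sham, where 20.9% of all genes were called higher and 18.0% lower. Cardiomyocyte markers, summed over 8 genes, were at 8817 to 10440.4 scaled FPKM in Model and 17804 to 19479 in Sham hearts, with 7 of 8 called lower. Fibroblast markers, 7 genes, were at 2612 to 2877 in Model and 995 to 1196 in Sham hearts, with 6 of 7 called higher. Endothelial markers, 7 genes, overlapped at 226 to 253 in Model and 247 to 324 in Sham hearts. None of these 22 genes was at 0 in all 12 libraries, and the part of cell mixture in the values above was not tested.

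No member was called for either compound against Model. In LQ-40 against Model hearts, limma called 0 of 34 members (6 at an unadjusted p under 0.05, all lower; limma-voom called 0), beside 0.669% of all genes. In SQ-3 against Model hearts it also called 0 (5 at an unadjusted p under 0.05, all lower; limma-voom called 0), beside 0.346% of all genes. The median change of the members was -0.11 for LQ-40 and -0.16 for SQ-3, beside 0.01 and -0.01 over all genes. Without LQ-40 library 1 the median for LQ-40 was -0.06, beside 0.0008 over all genes, and 7 of the 34 changes had the opposite sign. In that fit limma called 0 members (1 at an unadjusted p under 0.05, Itgam, higher), beside 0.387% of all genes. Both comparisons share the Model libraries. The 95% interval of a member reached a median of 0.40 to either side on the log2 scale, within a range of 0.26 to 1.11. The interval excluded 0, before adjustment, for 6 members in LQ-40 and 5 in SQ-3. Each of the 6 settings that leave out a Model or LQ-40 library, and each of those for SQ-3, also gave 0 calls.

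**Figure D4:**
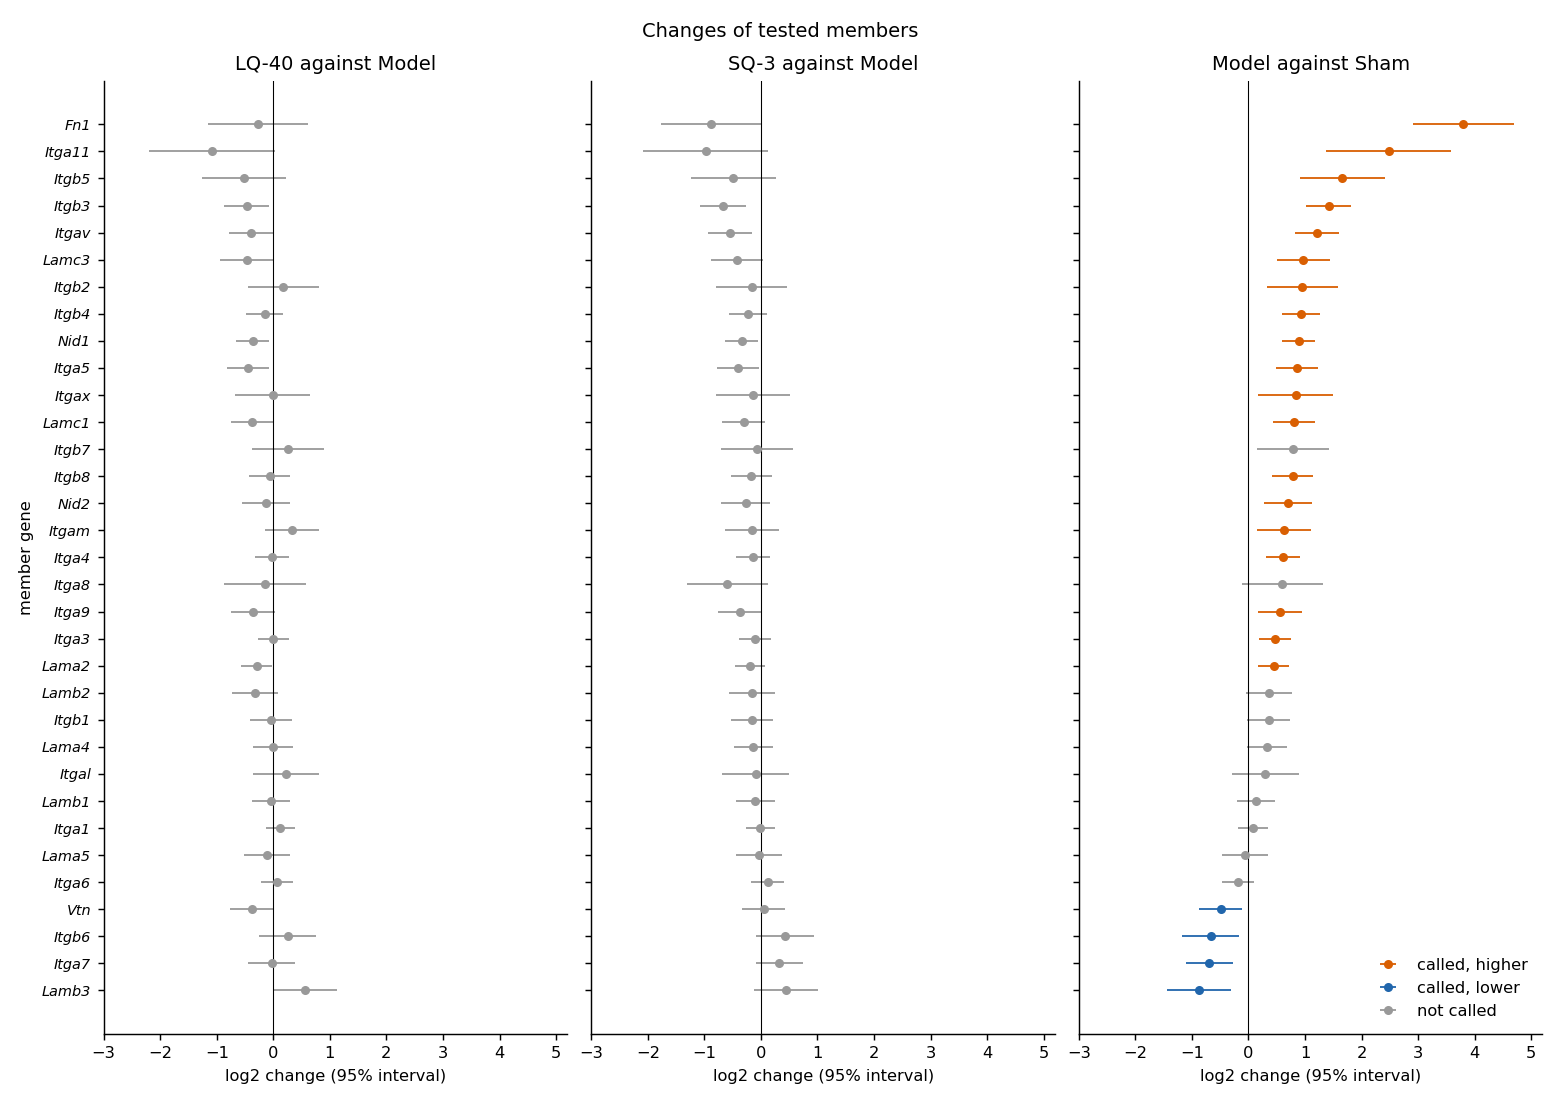
Change of tested members on the log2 scale with its 95% interval, for LQ-40 against Model, SQ-3 against Model and Model against Sham, all from the same 12 libraries. No point is called in the left and middle panels, where most intervals cross 0, and in the right panel the called members range from Fn1 (3.80) to Lamb3 (-0.88).

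Fibronectin shows how the compound groups differed in spread. In LQ-40 hearts Fn1 held 56.0 scaled FPKM in library 1 but 157 and 232 in libraries 2 and 3, which lie inside or above the Model range of 129 to 169. In SQ-3 hearts it held 79.3 to 89.6, all below Model and all above Sham. The change against Model was -0.27 ± 0.40 for LQ-40 (95% interval -1.16 to 0.61, adjusted p = 0.821) and -0.88 ± 0.40 for SQ-3 (95% interval -1.77 to 0.00, adjusted p = 0.353). Both errors rest on 1 spread shared by all 12 libraries, so the SD of 88.4 in LQ-40 enters the SQ-3 interval, although the SQ-3 SD was 5.73. For SQ-3 against Model, Fn1 was not called under any of 14 alternatives, and a fit without LQ-40 library 1 is not given. Without LQ-40 library 1 the sign for LQ-40 turned, to 0.31 ± 0.22 (95% interval -0.17 to 0.79, adjusted p = 0.768). The smallest adjusted p among members against Model was that of Nid1 for LQ-40 (-0.36 ± 0.13, 0.300; 0.550 without LQ-40 library 1) and that of Itgb3 for SQ-3 (-0.67 ± 0.18, 0.172). Itgb3 in SQ-3 hearts was called when these 2 groups were fitted alone (adjusted p = 0.0338), within a range of 0.0338 to 0.463 over its alternatives.

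For the 20 members called higher in Model than in Sham, the mean of LQ-40 lay between Sham and Model for 16 and the mean of SQ-3 for all 20. Of the 4 called lower, the LQ-40 mean lay between for 2 and the SQ-3 mean for 4. The 4 exceptions in LQ-40 among the 20 were Itga3, Itgam, Itgax and Itgb2, which were above the Model mean. LQ-40 library 1 was the lowest of its group for 15 of the 20 and library 3 the highest for 15, beside 85.7% and 70.8% of all 2718 genes called higher. Without LQ-40 library 1 the LQ-40 mean lay between for 13 of the 20, Fn1, Itga4 and Itgb8 joining the exceptions, and for 2 of the 4. A mean between the others is favoured by choosing members for a high Model mean, and these positions have no test.

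Against Sham, 12 members were called higher and 2 lower in LQ-40 hearts, beside 9.83% and 5.93% of all genes. The members called higher were Fn1, Nid1, Itga3, Itga4, Itgam, Itgav, Itgb2, Itgb3, Itgb4, Itgb5, Itgb7 and Itgb8, and those lower were Itga7 and Vtn. Of these, Itga4, Itgb3, Itgb4, Itgb7 and Itgb8 had no Sham library at 1 FPKM and passed the filter through other groups. The caution given for the count of Model against Sham therefore holds here too. Vtn changed by -0.87 ± 0.17 (adjusted p = 0.0134) and Itga7 by -0.72 ± 0.19 (adjusted p = 0.0314). Itgb7 was called here (1.04 ± 0.29, adjusted p = 0.0376), and Itga11 was not (1.40 ± 0.50, adjusted p = 0.0752), with LQ-40 library 1 inside the Sham range. Without LQ-40 library 1, 15 members were called higher and 2 lower, beside 18.3% and 15.5% of all genes, and the adjusted p of Itga11 was 0.000486. Without LQ-40 library 2 or 3 or Sham library 1 or 2, 3 or 4 members were called in all. Fn1 alone was called under every alternative.

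In SQ-3 against Sham hearts, 5 members were called higher, beside 4.86% of all genes, and limma called 0 lower (1 at an unadjusted p under 0.05; limma-voom called 8, all higher), beside 1.82% of all genes. They were Fn1 (2.92 ± 0.40, adjusted p = 0.00330), Itgb4 (0.71 ± 0.15, 0.0253), Nid1 (0.56 ± 0.13, 0.0354), Itgb3 (0.75 ± 0.18, 0.0364) and Itgav (0.68 ± 0.18, 0.0464). Among them, Itgb3 and Itgb4 had no Sham library at 1 FPKM and passed the filter through other groups, so the same caution applies. Leaving out any 1 of the 6 libraries left 1 or 2 calls, Fn1 among them each time. The comparisons against Sham all use the same Sham libraries.

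The compounds themselves formed 1 pair, LQ-40 and SQ-3, for which the labels give no dose. Limma called 0 of 34 members between them (2 at an unadjusted p under 0.05; limma-voom called 0), beside 0% of all genes. These 2 were Itgam, with 1.81, 2.57 and 4.55 scaled FPKM in LQ-40 hearts and 1.47, 1.82 and 1.88 in SQ-3 hearts (0.49 ± 0.22, 95% interval 0.01 to 0.97, adjusted p = 1.000), and Vtn, with 11.0, 9.77 and 10.4 in LQ-40 hearts and 16.6, 13.0 and 13.5 in SQ-3 hearts (-0.43 ± 0.17, 95% interval -0.81 to -0.05, adjusted p = 1.000). The Vtn libraries of the 2 compounds did not overlap. For Fn1 the difference was 0.61 ± 0.40, with a 95% interval of -0.28 to 1.497, which includes 0 and also a difference of up to 1.497 towards LQ-40. Without LQ-40 library 1 it was 1.19 ± 0.22 (95% interval 0.71 to 1.68, adjusted p = 0.381). Over the members the intervals reached from -1.21 to 1.497, so these libraries do not show that the compounds act alike. Without LQ-40 library 1 limma again called 0 members (8 at an unadjusted p under 0.05, of which 6 were higher in LQ-40 and 2 lower), beside 0% of all genes, and the intervals reached from -0.93 to 1.68.

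The remaining members were low. Itga2b, Itgad, Itgae, Lama1 and Lama3, with Itga2 and Itga10 above, did not pass the filter. Itga2b was at 0.298 to 0.810 scaled FPKM in Model and 0.177 to 0.201 in Sham hearts, and Itgad at 0.0516 to 0.0890 in Model and 0.0659 to 0.296 in Sham hearts.

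In the rat cultures, the labelled cardiomyocytes and macrophages were hardly visible in the RNA. The 7 cardiomyocyte markers found in the table summed to 9.62 scaled FPKM in 3D and 10.04 in 2D, of which Tnnt2 gave 6.81 and 6.54, while Myh6 was at 1.58 in 3D and 1.95 in 2D and Myl2 was at 0 in both. The 8 macrophage markers summed to 9.62 in 3D and 9.12 in 2D, with Adgre1 at 1.31 in 3D and 0.678 in 2D, C1qb at 0 in 3D and C1qc at 0 in 2D. The 7 fibroblast markers summed to 2172 in 3D and 2207 in 2D, of which Col1a1 gave 1788 and 2007. The sum hides unequal genes. Dcn (254 in 3D and 76.7 in 2D), Pdgfra, Dpt and Lum were higher in 3D, and Tcf21 (5.82 and 13.1) and Gsn were lower. Smooth muscle and pericyte markers, also 7 genes, summed to 444 in 3D and 543 in 2D. The comparison of 3D with 2D rests on 1 library each, has no replicate check and no p-value, and its intervals cover counting error only. Any treatment meant by the name 3D-OGD-MF could not be told apart from culture format.

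With a rule of 2-fold on the log2(scaled FPKM + 1) scale, 2 of the 30 members compared (at least 1 FPKM in either library) were higher in 3D and 0 lower, beside 5.03% higher and 2.44% lower of all 13405 genes. The collagen receptor chain Itga2 was at 5.38 scaled FPKM in 3D and 0.651 in 2D, and its read ratio adjusted for depth was 8.27 (95% interval 5.76 to 12.2). Itgb3 was at 4.66 scaled FPKM in 3D and 1.57 in 2D, with a read ratio of 2.96 (95% interval 2.13 to 4.18). Itgb2 and Lamb3 also had read ratios of at least 2, at 2.63 (95% interval 1.93 to 3.61) and 2.01 (95% interval 1.61 to 2.53), but fell short of the rule on the scale with 1 added. All 4 are low genes in these cultures.

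**Figure D5:**
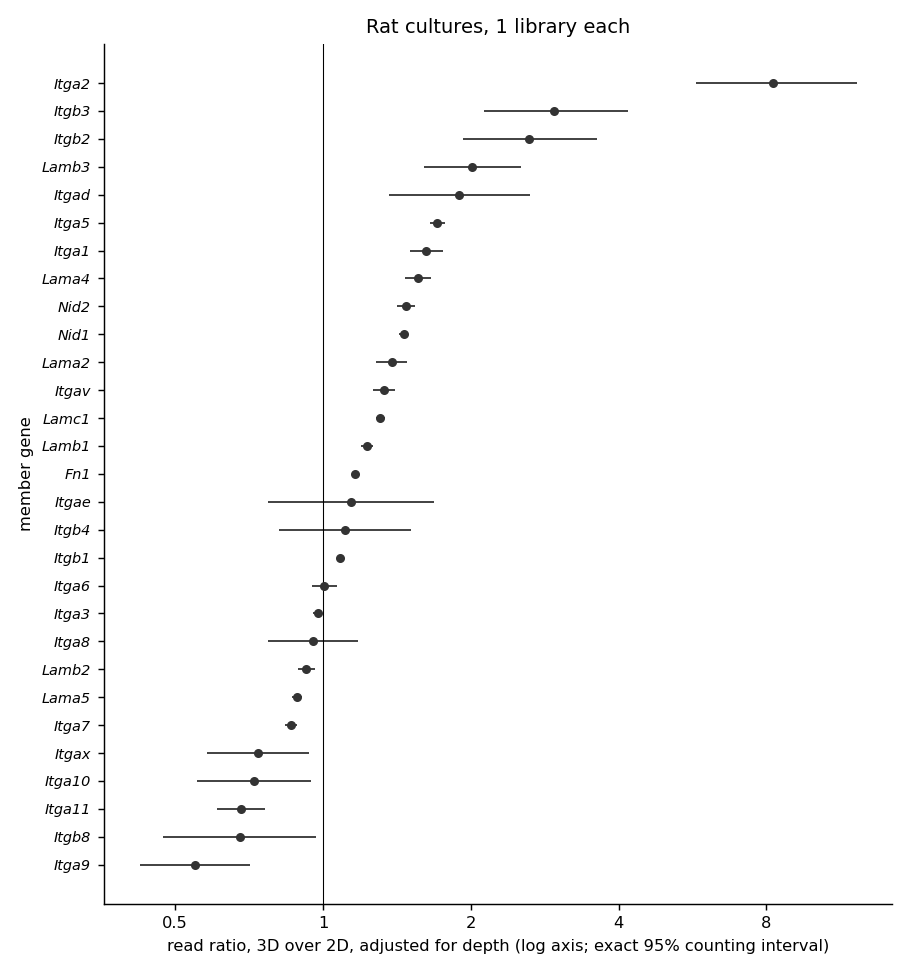
Ratio of reads in the rat 3D culture over the 2D cells, adjusted for depth, for members compared, on a log axis with exact 95% counting intervals from 1 library each. Itga2 (8.27) and Itgb3 (2.96) are at the top and Itga9 (0.550) at the bottom.

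The abundant members differed by less. Itgb1 was at 610.0 scaled FPKM in 3D and 562 in 2D, a ratio of 1.08 (95% interval 1.07 to 1.10), and made up 98.1% in 3D and 98.9% in 2D of the beta chains. Fn1 was at 619 scaled FPKM in 3D and 533 in 2D, a ratio of 1.16 (95% interval 1.15 to 1.17). Itga5 was higher in 3D, at 145 scaled FPKM in 3D and 84.6 in 2D (1.71 (95% interval 1.65 to 1.77)), and Itgav too, at 80.6 scaled FPKM in 3D and 60.6 in 2D (1.33 (95% interval 1.26 to 1.40)). The fibroblast collagen receptor Itga11 was lower in 3D, at 9.08 scaled FPKM in 3D and 13.3 in 2D (0.682 (95% interval 0.608 to 0.763)), as was Itga9, at 2.48 scaled FPKM in 3D and 4.51 in 2D (0.550 (95% interval 0.423 to 0.711)).

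The main alpha chains of the cultures were the laminin receptors Itga3, which made up 37.4% in 3D and 41.4% in 2D of the alpha chains, and Itga7, which made up 21.0% in 3D and 26.4% in 2D. Itga3 was at 283 scaled FPKM in 3D and 290.1 in 2D, and Itga7 at 159.6 scaled FPKM in 3D and 185 in 2D. Itga7 was thus abundant where cardiomyocyte markers were low, and which cells carried it was not tested. Of the basement membrane members, Nid1 was at 258 scaled FPKM in 3D and 177 in 2D (1.46 (95% interval 1.43 to 1.49)), Nid2 at 97.1 scaled FPKM in 3D and 65.8 in 2D (1.48 (95% interval 1.42 to 1.54)), Lama4 at 37.7 scaled FPKM in 3D and 24.1 in 2D (1.56 (95% interval 1.47 to 1.66)) and Lamc1 at 305 scaled FPKM in 3D and 233 in 2D (1.31 (95% interval 1.28 to 1.33)). Lama5, which made up 61.4% in 3D and 73.0% in 2D of the laminin alpha chains, was at 83.5 scaled FPKM in 3D and 94.3 in 2D (0.885 (95% interval 0.864 to 0.908)). Intervals lay wholly above 1 for 16 of the 30 members and wholly below 1 for 10, and the median log2 change was 0.17, beside 0.004 over all genes. Rat Itga1 overlaps Pelo and rat Itgad overlaps Itgax on the same strand, so their values are uncertain. Vtn held 1 read in 3D and 4 in 2D, and Lama1 and Lamc3 were listed at 0 in both.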

How the data were processed

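The authors deposited FPKM values with gene lengths, names and coordinates for mouse hearts and rat cells. HISAT2 2.0.5, featureCounts 1.5.0-p3, fastp and the builds mm10 and Rnor_6.0 are listed in the submitters' processing notes. The strand setting was not given in the sources used here. Reads of overlapping genes are therefore uncertain. FPKM times gene length came out as whole reads in 100% of cases (within 0.02 of a read). Each library was scaled by median of ratios, and its values were analysed as log2(scaled FPKM + 1) for mouse genes that reached 1 FPKM in 3 or more of the 12 libraries. The tool was limma 3.58.1 (R 4.3.3), with eBayes trend, all 12 libraries in 1 fit, two-sided tests and Benjamini-Hochberg adjustment over 13000 genes. A run on simulated reads checked only that the code finds changed genes. That simulation held no outlying library, so it does not cover a spread such as that of the LQ-40 group. Rat libraries were compared as ratios with exact 95% binomial intervals. The deposited lengths of all 41 mouse members equalled their summed exons in GENCODE vM21, which served for overlaps and coding sites. Members called in at least 1 mouse comparison are given with every library, except 1 that is counted but not reported here, and the others by range or count. Other lists are given by count, with up to 4 called genes of smallest p and those called in the rarer direction, the last added after their values were seen. Members and lists were chosen with earlier results of these data known. The alternatives were the unscaled FPKM, quantile normalization, limma-voom on the recovered reads, 0.1 as pseudocount, dropping the expression filter, raising it to a mean of 5 FPKM, fitting only the compared groups, a replicate block, and leaving out each library.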

Additional observations from a re-analysis of the deposited data

How the results depend on the processing

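No called member changed direction under any alternative. For Model against Sham (24 calls), 13 members were called with a mean of at least 5 FPKM, where 20 members were left to test, and 13 to 20 when a library was left out. For LQ-40 against Sham (14 calls), 8 were called without the filter, 7 with a mean of at least 5 FPKM, 2 with only the 2 groups fitted and 3 to 17 when a library was left out. For SQ-3 against Sham (5 calls), the count was 2 with quantile normalization, 1 without the filter, 3 with a mean of at least 5 FPKM, 8 with limma-voom on recovered reads and 1 to 2 when a library was left out. For SQ-3 against Model, 1 was called with only the 2 groups fitted. The rat count was 1 with at least 5 FPKM in either library, where 19 members were left. The causes of these shifts were not tested, beyond the smaller number of members or libraries named. Apart from the fit without LQ-40 library 1, the share of all genes called under an alternative is not given here. The shifts are therefore not shown to be particular to the members. Libraries share replicate numbers by title only: of 18 pairs of same-numbered libraries, 3 had deviations correlated above 0.1 (range -0.27 to 0.22) and 4 correlated best with their own number. With the replicate number as a block, 19 members were called in Model against Sham, 11 in LQ-40 against Sham, 3 in SQ-3 against Sham and 0 in the other comparisons. Depth limits the low members, since for a gene 1 kilobase long a single read counts as 0.0566 to 0.0805 FPKM.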
